A study of Mus musculus with 18 samples.

Results

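Wnt9a, a secreted ligand of the Wnt pathway, was measured beside 9 other Wnt genes in mouse embryonic fibroblasts (MEFs) whose serum was exchanged. The 10 genes were picked by name out of the 55487 genes of the count table. They are the ligands Wnt9a, Wnt2, Wnt4, Wnt5a, Wnt5b and Wnt10b, the pathway readouts Axin2 and Lef1, and the secreted inhibitors Sfrp1 and Dkk2. Wnt9a was chosen because its level followed the serum over all 6 groups of these libraries, so its values are given as a description, with no test. The other 9 genes were chosen for their place in the pathway, with earlier results of these data known.

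All libraries were made from the mRNA of wild-type MEFs from 1 cell line, grown in high-glucose DMEM with penicillin and streptomycin. Scm held MEFs in complete medium with a fetal bovine serum that left cells sensitive to ferroptosis (S-FBS), and Rcm held MEFs with a serum that made them resistant (R-FBS). S-Rcm MEFs were moved out of Scm into Rcm, and R-Scm MEFs out of Rcm into Scm, and both were harvested 12 h or 24 h later. Each of the 6 groups had 3 libraries, and the labels do not say whether they came from separate cultures. The study states that its cell culture experiments rest on independent replicates, without naming these libraries, so the p values measure the spread between libraries, which may be technical.

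Total counts ran from 14534906 to 20313715 per library. Of 10 listed fibroblast markers, Lum alone stayed under 1 CPM (reads on a gene, scaled to a library of 1000000 reads) in every library, and their summed level was 8058 to 12538 CPM. Dcn was also low, at 1.38 to 10.1 CPM, and Vim, at 2848 to 4526 CPM, made up the largest part of the sum. Of markers of other cell types, 5 of 6 epithelial, 3 of 5 endothelial, 4 of 5 blood cell and 4 of 4 skeletal muscle genes stayed under 1 CPM in every library. The exceptions were Krt19 (5.99 to 18.9 CPM), Kdr (up to 1.84), Cdh5 (up to 1.10), and Cd68 (2.02 to 4.91). The neuronal marker Tubb3 stood at 6.19 to 24.6 CPM. The part of these genes in the results was not tested. The library that lay farthest from its group mean over all genes was R-Scm 24 h replicate 1. The Scm and Rcm libraries are labelled 0 h, so in a comparison of an exchange group with its starting medium the serum cannot be told apart from the medium change and the time after it. S-Rcm and R-Scm libraries of the same hour share both, but they came from opposite sera. Between them the serum at harvest cannot be told apart from what remains of the serum left behind.

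Wnt proteins are secreted with a lipid that Porcn attaches and Wls carries out of the cell, and they bind Frizzled receptors together with LRP co-receptors. In the canonical branch this stops the destruction complex, in which Axin1, Apc and Gsk3b take part, from marking beta-catenin for breakdown. Beta-catenin then joins TCF and LEF factors on DNA and raises genes that include Axin2, a scaffold that feeds back on the pathway and is widely read as its reporter. Fibroblasts are known as a source of Wnt ligands and of the inhibitors that keep them in check.

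The upstream sequences of Wnt9a and Axin2 are shown since these are the ligand that followed the serum and the readout with the lowest adjusted p. RefSeq windows were found for 8 of the 10 genes, and the 250 bases before the annotated start are given 5′ to 3′ on the gene's strand. In GRCm38.p6 the Wnt9a window is chr11:59306680-59306929 and the Axin2 window is chr11:108920099-108920348, both on the plus strand. Capitals mark the E-box CACGTG.
Wnt9a: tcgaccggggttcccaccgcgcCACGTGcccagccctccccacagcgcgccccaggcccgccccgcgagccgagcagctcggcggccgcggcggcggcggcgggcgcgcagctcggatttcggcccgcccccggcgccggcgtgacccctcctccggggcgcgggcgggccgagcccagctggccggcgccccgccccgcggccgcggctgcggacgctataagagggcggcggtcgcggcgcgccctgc
Axin2: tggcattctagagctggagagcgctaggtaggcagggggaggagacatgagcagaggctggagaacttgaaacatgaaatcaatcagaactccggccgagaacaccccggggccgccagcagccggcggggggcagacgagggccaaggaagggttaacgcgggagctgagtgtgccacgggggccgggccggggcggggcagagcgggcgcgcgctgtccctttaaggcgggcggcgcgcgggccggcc
The Wnt9a window held 1 E-box, 228 bases before the start, and the Axin2 window held 0. Of all 32817 windows of this length, 6.02% held this E-box, which reads the same on both strands. Of the words that TCF and LEF factors bind, searched on both strands, CTTTGAT was in 3.21% of all windows, the variant CTTTGAA in 4.46%, the variant CTTTGTT in 5.03% and the variant CTTTGTA in 3.2%. At least 1 of these was in 14.8% of all windows, and none was in either window printed here. The sterol element TCACNCCAC was also in neither window, and in 1.05% of all windows. A match describes the letters only.

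Wnt9a (ENSMUSG00000000126) lies on chromosome 11 from 59306928 to 59333552 in GRCm38, on the plus strand. Its libraries held 3.58, 3.05 and 2.89 CPM in Scm and 5.74, 6.85 and 7.47 CPM in Rcm. After the exchange into Rcm they held 7.89, 7.73 and 7.32 CPM at 12 h and 5.96, 7.04 and 6.96 CPM at 24 h. All 6 libraries of the exchange into Rcm were above all 3 Scm libraries, where 26.4% of all tested genes had no overlap at 12 h and 19.5% at 24 h. In the opposite exchange they held 6.02, 4.17 and 4.11 CPM at 12 h and 4.36, 2.97 and 3.11 CPM at 24 h. The 24 h libraries lay below all 3 Rcm libraries (11.2% of tested genes had no overlap), whereas at 12 h replicate 1 was above Rcm replicate 1. These values rest on 42 to 147 counts per library, and with counting error alone (exact Poisson, 95%) Scm replicate 1 spans 2.78 to 4.55 CPM and Rcm replicate 1 spans 4.63 to 7.04 CPM. In bulk RNA such a difference cannot be told apart from a different share of cells that make the transcript.

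Wnt9a was 1.07 (SE 0.19) higher on the log2 scale in Rcm than in Scm, from 3.17 ± 0.365 CPM (SD, n = 3) in Scm to 6.69 ± 0.877 CPM in Rcm. S-Rcm exceeded Scm by 1.26 (SE 0.19) at 12 h and by 1.06 (SE 0.19) at 24 h, on the log2 scale, at 7.65 ± 0.294 and 6.65 ± 0.600 CPM. R-Scm differed from Rcm by -0.49 (SE 0.18) at 12 h and by -0.94 (SE 0.19) at 24 h, at 4.76 ± 1.09 and 3.48 ± 0.766 CPM. The exchange comparisons share their Rcm or Scm libraries with the comparison of Rcm and Scm. S-Rcm and R-Scm share no library with it, but Wnt9a was chosen for its level in these libraries too. Set against each other, S-Rcm and R-Scm differed by 0.68 (SE 0.18) at 12 h and 0.94 (SE 0.19) at 24 h. Their difference is therefore a description and no independent check. Leaving out R-Scm 12 h replicate 1 changed the 12 h value of R-Scm against Rcm to -0.69.

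From the highest mean to the lowest, Wnt9a ran S-Rcm 12 h, Rcm, S-Rcm 24 h, R-Scm (12 h before 24 h) and Scm, and the libraries of every pair of neighbours in this order overlapped. By the serum at harvest, the 9 libraries in R-FBS ran from 5.74 CPM through a median of 7.04 to 7.89 CPM, and the 9 libraries in S-FBS from 2.89 through 3.58 to 6.02 CPM. R-Scm 12 h replicate 1 was the only library in S-FBS within the range of those in R-FBS. The time after the exchange had smaller log2 differences, -0.45 (SE 0.19) between R-Scm 24 h and R-Scm 12 h and -0.20 (SE 0.18) between S-Rcm 24 h and S-Rcm 12 h. The first became -0.25 without R-Scm 12 h replicate 1, and the second became -0.13 without S-Rcm 24 h replicate 1.

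**Figure D1:**
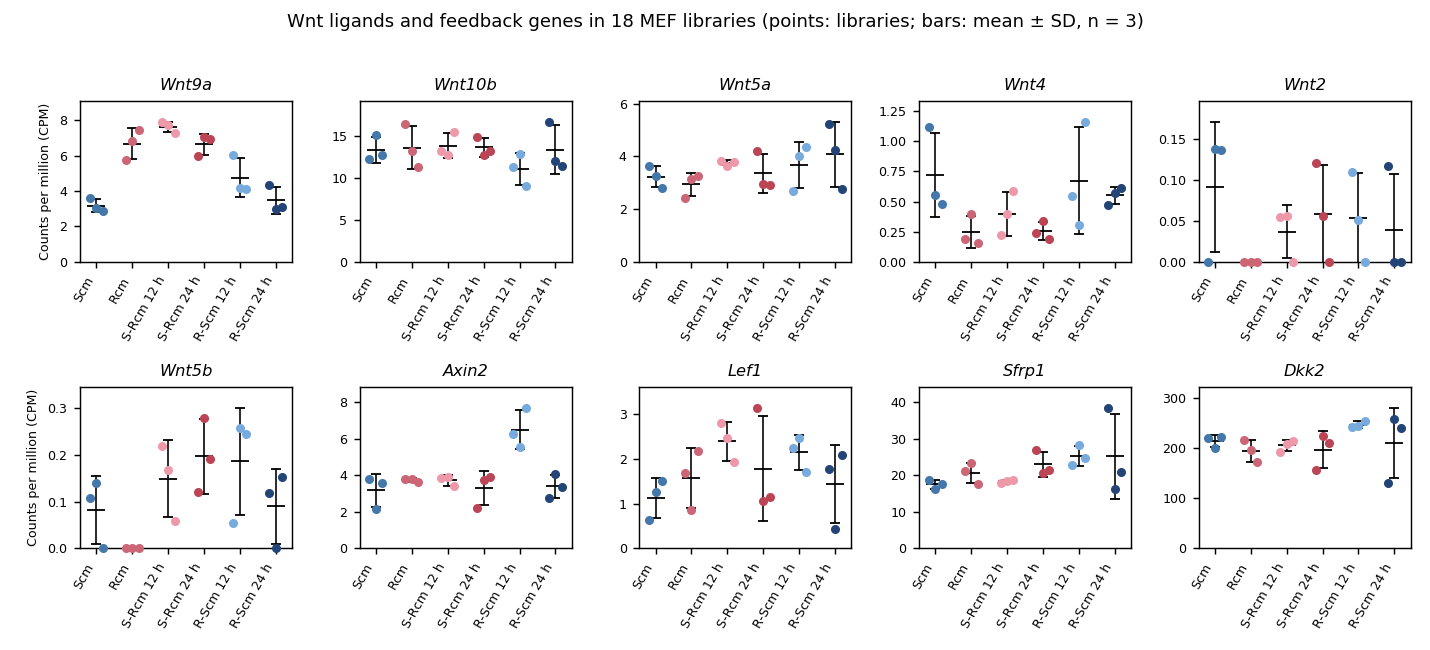
Level of each of the 10 Wnt genes in CPM (vertical axis, from 0, with its own scale per gene) in the 6 groups (horizontal axis). Points are libraries, horizontal marks the mean and bars the SD of 3 libraries, cut at 0. Wnt9a is at 2.89 to 3.58 CPM in Scm and 5.74 to 7.47 CPM in Rcm, while the 3 Axin2 libraries of R-Scm 12 h are the highest of 18.

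None of the other 9 genes was called by edgeR. Wnt2 and Wnt5b were removed by the filter on low counts, and of the 7 tested 0 were called in any of 13 comparisons by edgeR's quasi-likelihood test (absolute log2 fold change above 0.58 and Benjamini-Hochberg adjusted p under 0.05 over 15381 genes). In Rcm against Scm 2.3% of all tested genes were called, in R-Scm against Rcm 2.74% at 12 h and 0.377% at 24 h, and in S-Rcm against Scm 0.858% and 0.338%. In S-Rcm against R-Scm 2.63% were called at 12 h and 0.065% at 24 h, and between 24 h and 12 h 0.774% in R-Scm and 0.156% in S-Rcm. For the mean of both exchanges, each against its starting medium, these shares were 1.51% at 12 h and 0.026% at 24 h, and for the difference between the exchanges (adjusted p alone) 2.22% and 1.43%. An unadjusted p under 0.05 was found for 1 of the 7 genes in Rcm against Scm, beside 16.2% of all genes. At 12 h and 24 h it was found for 2 and 0 of the 7 in R-Scm against Rcm (17.6% and 10.3% of all genes) and for 1 and 1 in S-Rcm against Scm (14.3% and 8.11%). At 12 h and 24 h it was 1 and 0 for S-Rcm against R-Scm (21.4% and 8.3% of all genes), 2 and 1 for the mean of both exchanges (18.1% and 5.74%) and 1 and 1 for their difference (14.7% and 12.6%). Between 24 h and 12 h it was 1 in R-Scm (13.6%) and 0 in S-Rcm (9.26%). The median log2 fold change of the 7 was 0.03 in Rcm against Scm, beside 0.01 over all genes, and 0.34 in R-Scm 12 h against Rcm, beside -0.01. DESeq2 called 1 of the 7, Axin2, in 3 comparisons that all involve R-Scm 12 h.

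**Figure D2:**
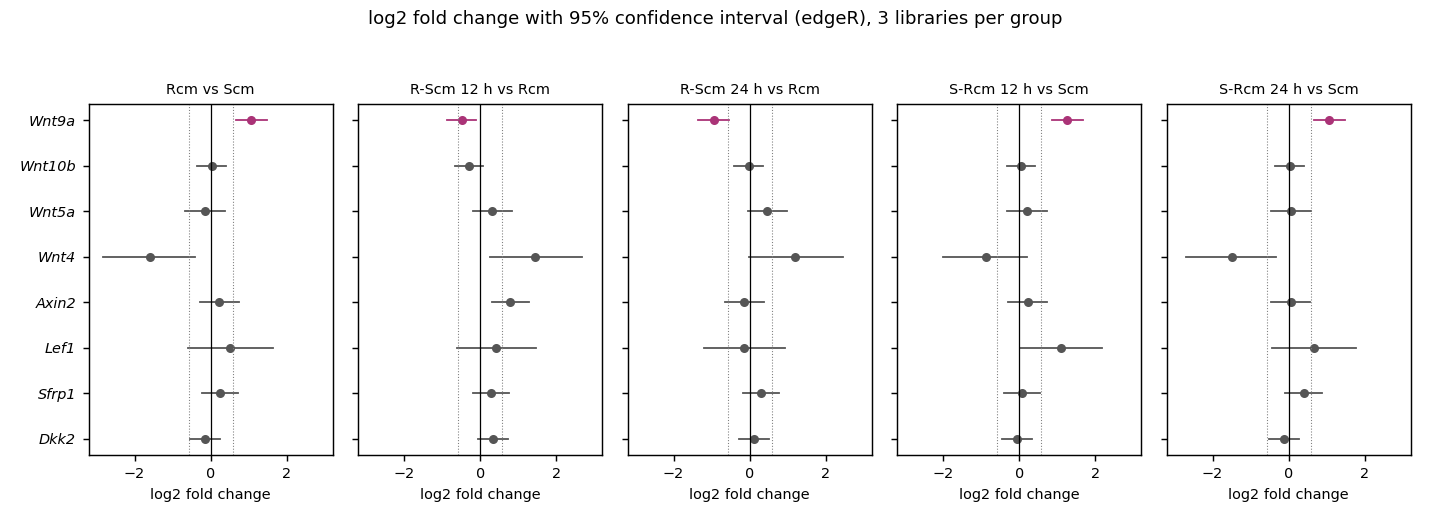
log2 fold change (horizontal axis) of the 8 Wnt genes that passed the filter, one row per gene, in 5 comparisons. Points are estimates and lines 95% confidence intervals from edgeR with 3 libraries per group, and dotted lines mark 0.58 on either side of 0. Wnt9a, in purple and not tested, is at 1.07 in Rcm against Scm, and Wnt10b stays between -0.29 and 0.05 in all 5.

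Wnt10b, a ligand of the canonical branch known for holding back fat cell formation, had the highest level per length of the 6 ligands, 3.85 ± 0.575 CPM per kb of exon (SD over 18 libraries). It held 12.2, 15.1 and 12.6 CPM in Scm and 16.3, 13.1 and 11.3 CPM in Rcm. These libraries overlapped, and the log2 difference was 0.03 with a 95% interval of -0.35 to 0.40 (adjusted p = 0.96). Over the 5 comparisons of the study its log2 fold change was -0.29 to 0.05, and the intervals together reached from -0.67 to 0.43.

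Wnt5a, which mostly signals without beta-catenin, held 3.64, 3.26 and 2.82 CPM in Scm and 2.43, 3.13 and 3.25 CPM in Rcm. The groups overlapped, with a log2 difference of -0.14 (95% interval -0.67 to 0.39, adjusted p = 0.806). The highest Wnt5a library, at 5.24 CPM, was R-Scm 24 h replicate 1, the library farthest from its group. The gene Gm2670 overlaps Wnt5a on the opposite strand, and whether the counting used strand is not given in the sources used here. Wnt9a and Wnt5a stood at 1.62 ± 0.556 and 0.449 ± 0.0933 CPM per kb over the 18 libraries.

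Wnt4, a ligand with both canonical and other effects, was near the limit of these libraries, with 3 to 21 counts. It held 1.12, 0.555 and 0.481 CPM in Scm and 0.187, 0.399 and 0.152 CPM in Rcm. All 3 Rcm libraries were below all 3 Scm libraries, as were the libraries of 23.9% of all tested genes in one direction or the other. The log2 fold change was -1.59 (SE 0.57, 95% interval -2.82 to -0.42), and it did not pass after adjustment (adjusted p = 0.157).

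In the exchanges Wnt4 held 0.219, 0.392 and 0.585 CPM at 12 h and 0.241, 0.335 and 0.190 CPM at 24 h after the move into Rcm. After the move into Scm it held 0.547, 0.309 and 1.17 CPM at 12 h and 0.471, 0.568 and 0.612 CPM at 24 h. At 24 h S-Rcm and R-Scm did not overlap (10.4% of all tested genes), whereas at 12 h they did. The difference between the exchanges, each against its starting medium, was -2.32 (SE 0.77, adjusted p = 0.143) at 12 h and -2.67 (SE 0.81, adjusted p = 0.127) at 24 h on the log2 scale, the opposite sign to the 1.75 (SE 0.27) and 2.01 (SE 0.27) of Wnt9a. Neither Wnt4 value passed the test.

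Wnt2, a ligand of the canonical branch, and Wnt5b, which like Wnt5a mostly signals without beta-catenin, were at or near 0. Wnt2 had 0 to 2 counts per library and Wnt5b 0 to 5. Both had 0 counts in all 3 Rcm libraries, where 3 counts, the floor set here for a count of 0, correspond to 0.152 to 0.200 CPM per library. In Scm Wnt2 had 0, 2 and 2 counts and Wnt5b 2, 2 and 0. Wnt5b had 4, 3 and 1 counts in S-Rcm 12 h and 2, 5 and 3 in S-Rcm 24 h. In R-Scm it had 1, 5 and 4 counts at 12 h and 2, 0 and 3 at 24 h. Neither gene was in the main test, and neither was called in the fit without the filter. So few reads cannot settle whether either gene differed, and Fbxl14 overlaps Wnt5b on the opposite strand.

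**Figure D3:**
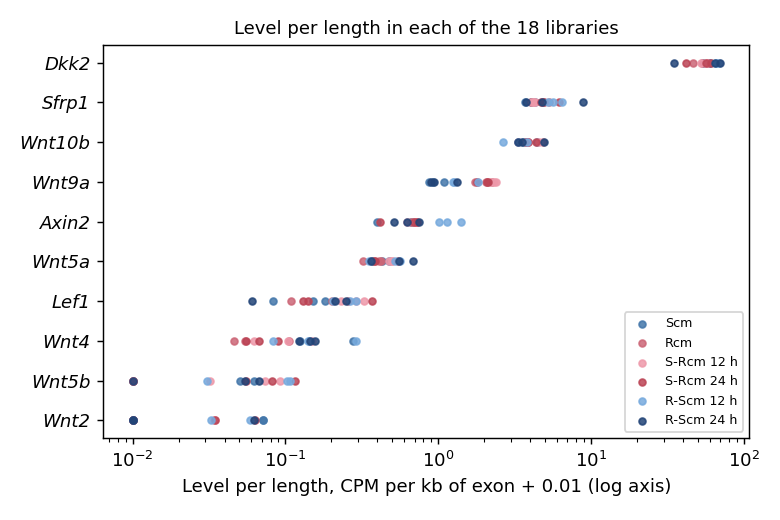
Level per length of the 10 Wnt genes (rows) in CPM per kb of exon plus 0.01, on a log axis, with 1 point per library coloured by group. Dkk2 at 35.1 to 69.9 CPM per kb is the highest, Wnt10b leads the 6 ligands, and the points at 0.01 are libraries of Wnt2 and Wnt5b with 0 counts.

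Axin2, the feedback scaffold and reporter of beta-catenin activity, had its highest 3 values of 18 in R-Scm 12 h. It held 3.8, 2.15 and 3.57 CPM in Scm and 3.8, 3.79 and 3.61 CPM in Rcm, with overlap between these groups and a log2 difference of 0.23 (95% interval -0.28 to 0.74, adjusted p = 0.663), which became 0.016 without Scm replicate 2. In R-Scm 12 h it held 6.24, 5.56 and 7.66 CPM, and 2.77, 4.04 and 3.36 CPM in R-Scm 24 h. The exchange into Rcm left it at 3.83, 3.92 and 3.40 CPM at 12 h and 2.23, 3.74 and 3.92 CPM at 24 h.

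The libraries of R-Scm 12 h and Rcm did not overlap, as for 23.4% of all tested genes. R-Scm 12 h differed from Rcm by 0.79 (SE 0.23, 95% interval 0.30 to 1.29) on the log2 scale, which missed the threshold after adjustment (edgeR, adjusted p = 0.0649). S-Rcm 12 h differed from R-Scm 12 h by -0.80 (SE 0.23, adjusted p = 0.0631), and R-Scm 24 h from R-Scm 12 h by -0.93 (SE 0.23, adjusted p = 0.0686). DESeq2 gave adjusted p = 0.0199, 0.0181 and 0.0101 for these 3 comparisons, in which it called 3.76%, 3.63% and 1.52% of all genes. Over all alternatives tried the adjusted p of the first ran from 0.0199 to 0.257. In S-Rcm 12 h, in the other serum at the same hour, Axin2 differed from Scm by 0.22 (95% interval -0.29 to 0.73, adjusted p = 0.75), and by 0.012 without Scm replicate 2. The difference between the 2 exchanges at 12 h was -0.57 (SE 0.33, adjusted p = 0.47) and did not pass. Gm11670 overlaps Axin2 on the opposite strand.

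Lef1, the DNA-binding partner of beta-catenin and itself a target of the pathway, was low, with 7 to 52 counts per library. It held 0.642, 1.25 and 1.51 CPM in Scm and 2.79, 2.47 and 1.93 CPM in S-Rcm 12 h. These groups did not overlap, as for 26.4% of all tested genes, and the log2 fold change of 1.10 (SE 0.51, 95% interval 0.02 to 2.18) did not pass (adjusted p = 0.337). Rcm held 1.68, 0.865 and 2.18 CPM and overlapped Scm. R-Scm 12 h held 2.24, 2.47 and 1.72 CPM and overlapped Rcm. At 24 h S-Rcm held 3.13, 1.06 and 1.14 CPM, and its log2 difference from Scm of 0.67 became -0.023 without replicate 1. Gm43352 and Gm42449 overlap Lef1.

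Sfrp1, a secreted protein that binds Wnt ligands, held 18.7, 16.2 and 17.7 CPM in Scm and 21.1, 23.3 and 17.6 CPM in Rcm. The groups overlapped, with a log2 difference of 0.23 (95% interval -0.24 to 0.71, adjusted p = 0.624). In R-Scm 12 h it held 22.9, 28.2 and 24.8 CPM, above all 3 libraries of S-Rcm 12 h at 18.02, 18.5 and 18.7 CPM (no overlap in 27.8% of all tested genes). That difference was -0.46 for S-Rcm against R-Scm (SE 0.22, adjusted p = 0.249) and did not pass. R-Scm 24 h replicate 1 held 38.4 CPM, against 16.3 and 20.9 CPM in its other libraries, and without it the log2 difference of R-Scm 24 h from Rcm went from 0.29 to -0.14.

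Dkk2, which binds LRP co-receptors and restrains or, in some settings, raises canonical signalling, was the most abundant of the 10 genes at 57.0 ± 9.10 CPM per kb. It held 219, 200 and 223 CPM in Scm and 216, 196 and 172 CPM in Rcm. The groups overlapped, and their log2 difference was -0.14 (95% interval -0.54 to 0.26, adjusted p = 0.739). R-Scm 12 h stood at 243, 244 and 254 CPM, above all Rcm libraries (no overlap in 23.4% of all tested genes), with a log2 difference of 0.34 (SE 0.19, adjusted p = 0.365) that did not pass. R-Scm 24 h replicate 1 was the lowest of 18 libraries at 130 CPM, against 259 and 241 CPM in the rest of its group. The same library was thus the highest for Sfrp1 and the lowest for Dkk2.

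Among the other genes of the pathway, 84 were listed and 59 passed the filter. In Rcm against Scm 6 of the 59 were called (10.2%, beside 2.3% of all genes), 3 higher in Rcm and 3 lower (1.67% and 0.631% of all genes). R-Scm differed from Rcm in 4 of the 59 at 12 h (6.78%, beside 2.74%) and in 1 at 24 h (1.69%, beside 0.377%). S-Rcm differed from Scm in 3 at 12 h (5.08%, beside 0.858%) and in 0 at 24 h, where 0.338% of all genes were called. There 8 of the 59 had an unadjusted p under 0.05, beside 8.11% of all genes. The median log2 fold change of the 59 in Rcm against Scm was 0.08. The count of 6 became 3 when any 1 of Scm replicate 1, Scm replicate 3, Rcm replicate 1 or Rcm replicate 2 was left out. Notum, Nkd2 and Apcdd1 were called in each of these.

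Of 13 further Wnt ligands 4 were tested, and Wnt7a was the one called and the highest per length, at 6.17 ± 2.68 CPM per kb. Wnt7a, a ligand of the canonical branch, held 24.6, 27.0 and 25.6 CPM in Scm and 8.67, 9.05 and 10.9 CPM in Rcm. It fell by 1.43 on the log2 scale (SE 0.34, adjusted p = 0.0351), against the direction of Wnt9a. In R-Scm 12 h it stood at 21.3, 21.0 and 37.6 CPM, which is 1.47 (SE 0.34, adjusted p = 0.0228) above Rcm on the log2 scale. The first call was lost in 5 of 6 fits without 1 library (adjusted p up to 0.146), all but that without Rcm replicate 3, and the second in 4 of 6 (up to 0.123), without any Rcm replicate or R-Scm 12 h replicate 3. Both were also lost without the filter on low counts (adjusted p = 0.0897 and 0.0605). Wnt3a, on the same chromosome as Wnt9a, had 0 counts in all 18 libraries.

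Of the 3 genes of ligand processing, all tested, Wls was the highest at 17.7 ± 2.55 CPM per kb. Notum, an enzyme that strips the lipid from Wnt proteins and is itself raised by the pathway, held 31.6, 32.2 and 22.7 CPM in Scm and 10.6, 9.25 and 12.6 CPM in Rcm. It fell by 1.41 on the log2 scale (SE 0.24, adjusted p = 0.0028), and this call held without any 1 library. The move into Rcm did not lower it at 12 h, with S-Rcm at 23.0 to 35.0 CPM. At 24 h it held 12.7 to 22.3 CPM in S-Rcm, beside 18.6 to 21.2 CPM in R-Scm. Neither S-Rcm group was called against Scm. In R-Scm 12 h it was at 26.5, 25.1 and 15.3 CPM, 1.04 (SE 0.24, adjusted p = 0.0172) above Rcm, a call lost without Rcm replicate 1 or 2 or R-Scm 12 h replicate 1 or 2 (adjusted p up to 0.0853), and in a fit on these 2 groups alone (0.0645). Porcn, the enzyme that attaches the lipid, held 4.33, 5.41 and 5.91 CPM in Scm and 9.80, 10.3 and 9.54 CPM in S-Rcm 12 h. It rose by 0.92 on the log2 scale (SE 0.17, adjusted p = 0.0147). The call was lost without Scm replicate 1 or 2 or S-Rcm 12 h replicate 2 (adjusted p up to 0.1). In the opposite exchange Porcn averaged 6.45 CPM in Rcm and 8.16 CPM in R-Scm 12 h, which was not called. The mean of both exchanges at 12 h, 0.63 on the log2 scale, was called (1.51% of all genes). That call was lost without Scm replicate 1 or R-Scm 12 h replicate 1. At 24 h Porcn averaged 6.69 CPM in S-Rcm and 5.07 CPM in R-Scm. Antisense genes overlap Notum, so its reads may be shared.

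Of the 9 genes of the R-spondin axis, which raises the number of Wnt receptors at the cell surface, 6 were tested and Lgr4 was the highest at 4.71 ± 0.971 CPM per kb. Rspo2, a ligand of this axis, held 1.23, 0.763 and 0.893 CPM in Scm and 2.62, 2.93 and 3.25 CPM in Rcm. It rose by 1.59 on the log2 scale (SE 0.38, adjusted p = 0.031), a call lost in each of the 6 fits without 1 library (adjusted p up to 0.142). At 12 h it was at 1.2, 1.29 and 0.995 CPM in S-Rcm and 1.92, 2.93 and 4.17 CPM in R-Scm. At that hour its level was thus nearer to that of the serum left behind than to that of the serum at harvest. At 24 h Rspo2 averaged 1.28 CPM in S-Rcm and 1.56 CPM (0.821 to 2.53) in R-Scm, beside 0.962 CPM in Scm and 2.93 CPM in Rcm. The R-Scm mean was then nearer to Scm. S-Rcm 12 h was lower than R-Scm 12 h by a log2 fold change of -1.36 (SE 0.37, adjusted p = 0.0462), a call lost in 5 of 6 fits without 1 library (adjusted p up to 0.228), all but that without R-Scm 12 h replicate 1. Without the filter its adjusted p was 0.054, and on these 2 groups alone 0.0768. Lgr6, a receptor of the axis, had Scm libraries at 0.481, 0.277 and 0.550 CPM and S-Rcm 12 h libraries at 2.41, 2.07 and 1.46 CPM, and it rose by 2.16 on the log2 scale (SE 0.40, adjusted p = 0.012). That call was lost without any Scm replicate or S-Rcm 12 h replicate 1 (adjusted p up to 0.072). In the opposite exchange Lgr6 averaged 0.346 CPM in Rcm and 0.951 CPM in R-Scm 12 h. The mean of both exchanges at 12 h was 1.79 on the log2 scale. This was called (1.51% of all genes) and held in all 18 alternatives, on 4 to 44 counts per library.

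Of 13 further secreted or surface inhibitors 4 were tested, and Kremen1 was the highest at 6.18 ± 0.896 CPM per kb. Apcdd1, a membrane protein that binds Wnt and its co-receptor and is raised by the pathway, held 17.9, 16.4 and 17.5 CPM in Scm and 32.4, 32.9 and 37.0 CPM in Rcm. It rose by 0.98 on the log2 scale (SE 0.10, adjusted p = 8.7e-05), and the call held without any 1 library. Both exchanges left it between these levels, at 22.9, 24.6 and 25.6 CPM in S-Rcm 12 h and 21.7, 20.8 and 23.3 CPM in R-Scm 24 h. R-Scm 24 h differed from Rcm by -0.64 (SE 0.10, adjusted p = 0.0092), a call lost without Rcm replicate 3 or R-Scm 24 h replicate 2 or 3, where the adjusted p reached 0.0633, and in a fit on these 2 groups alone (adjusted p = 0.339).

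Sfrp2, a relative of Sfrp1, moved by a handful of reads, with 19, 5 and 13 counts in Scm and 4, 1 and 3 counts in Rcm. Its log2 difference of -2.23 (SE 0.59, adjusted p = 0.0458) was called, and so was the 2.11 (SE 0.59, adjusted p = 0.0472) of R-Scm 12 h, at 15, 13 and 10 counts, against Rcm. Both calls use the same Rcm libraries. S-Rcm averaged 0.716 CPM at 12 h and 0.745 CPM at 24 h, beside 0.752 CPM in Scm. Leaving out 1 library ended the first call in 5 of 6 fits (adjusted p up to 0.208), all but that without Scm replicate 2, and the second in 6 of 6 (up to 0.157). Without the filter the adjusted p values were 0.0557 and 0.0618, and the second was 0.0807 on the compared groups alone. Dkk3, a member of the Dkk family, held 8.61, 6.72 and 7.62 CPM in Rcm and 3.78, 3.76 and 1.59 CPM in R-Scm 12 h. It fell by 1.32 on the log2 scale (SE 0.31, adjusted p = 0.0204), lost without Rcm replicate 1 or 3 or R-Scm 12 h replicate 3 (adjusted p up to 0.0841) and on these 2 groups alone (0.0851). Dkk1, Dkk4 and Sfrp5 had 0 counts in all 18 libraries.

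Of 16 receptors and co-receptors 15 were tested and the highest was Ryk, at 54.0 ± 5.26 CPM per kb. Fzd5, a Frizzled receptor, held 117, 104 and 115 CPM in Scm and 66.4, 62.7 and 66.9 CPM in S-Rcm 12 h. It fell by 0.78 on the log2 scale (SE 0.14, adjusted p = 0.0089), and the call was lost without Scm replicate 1 or 3 (adjusted p up to 0.0574). It was the 1 receptor called in S-Rcm 12 h against Scm (6.67% of 15, beside 0.858% of all genes). None of the 10 tested Dishevelled and destruction complex genes, led by Ctnnb1, the beta-catenin gene, at 88.5 ± 18.1 CPM per kb, was called in the 5 comparisons by edgeR, and 1 had an unadjusted p under 0.05, in R-Scm 12 h. The 9 TCF factors and co-factors, led by Pygo2 at 33.2 ± 4.16 CPM per kb, also had 0 calls by edgeR in the 5 comparisons. Of these 9, 1 had an unadjusted p under 0.05 in R-Scm 12 h against Rcm and 3 in S-Rcm 12 h against Scm. The shares of all tested genes with such a p were 17.6% and 14.3%. Over all tested genes 0.338% to 2.74% were called in the 5 comparisons, so 0 calls among 9 or 10 genes is near the background of calls.

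Of 11 further target and feedback genes 8 were tested, and the highest per length was Ccnd1, the cyclin of early cell cycle, at 118 ± 13.2 CPM per kb. Nkd2, a feedback inhibitor that binds Dishevelled, held 30.01, 35.6 and 32.7 CPM in Scm and 50.6, 55.3 and 56.8 CPM in Rcm. It rose by 0.73 on the log2 scale (SE 0.11, adjusted p = 0.0011), and the call held without any 1 library. In S-Rcm it stood at 35.5 to 36.5 CPM at 12 h and 37.0 to 38.4 CPM at 24 h, and in R-Scm at 42.0 to 59.8 and 40.8 to 42.1 CPM. Nkd2 was the 1 of these 8 genes called in Rcm against Scm (12.5%, beside 2.3% of all genes).

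**Figure D4:**
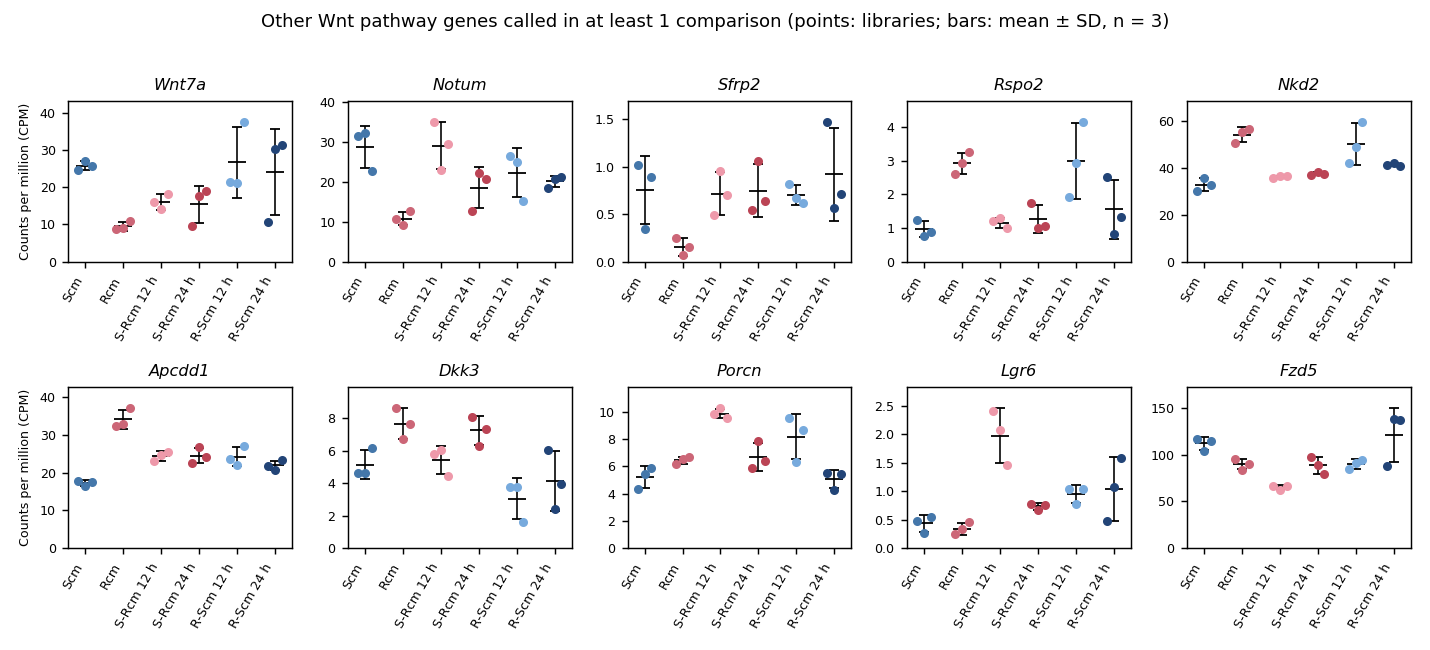
Level in CPM (vertical axis, from 0, with its own scale per gene) of the 10 further pathway genes called in at least 1 of 5 comparisons, in the 6 groups (horizontal axis). Points are libraries, horizontal marks the mean and bars the SD of 3 libraries. Wnt7a, Notum and Sfrp2 are lower in Rcm than in Scm, and Rspo2, Nkd2 and Apcdd1 are higher.

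The genes whose level was most like that of Wnt9a were ranked by Pearson's r of log2 CPM over the 18 libraries, among 13534 tested genes with a mean of at least 1 CPM. All points share the 6 groups and their depths, so r describes the group pattern and has no p. First came Col7a1, the anchoring fibril collagen, with r = 0.907. It was followed by Cpt1a, the gate of fatty acid entry into mitochondria (0.903), and Angptl4, a secreted inhibitor of lipoprotein lipase (0.894). The others were Artn (0.882), a ligand of the GDNF family, Slc25a20 (0.871), the carnitine carrier of mitochondria, Slc2a4rg-ps (0.869), Fancg (0.852), Pcx (0.839), pyruvate carboxylase, Iqcc (0.838) and Maged2 (0.834). By Spearman's rho 5 of these 10 were again among the first 10.

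Cpt1a averaged 64.5 ± 2.72 CPM (SD, n = 3) over the Scm libraries against 136 ± 1.39 CPM over those of Rcm, and stood at 125 ± 6.27 and 74.0 ± 6.04 CPM in S-Rcm 12 h and R-Scm 12 h. Angptl4 averaged 8.26 ± 0.602 CPM over the Scm libraries against 29.0 ± 1.90 CPM over those of Rcm, and stood at 33.1 ± 4.37 and 14.9 ± 1.43 CPM in the same 2 exchange groups. None of the pathway genes was among the first 10, and the nearest were Fzd2, at rank 135 with r = 0.7, and Porcn, at rank 139 with r = 0.699. By Spearman's rho Porcn was at rank 28 (0.808) and Fzd2 at rank 158 (0.713). Fzd5 ran opposite to Wnt9a, at rank 13525 with r = -0.844. Of the 9 other Wnt genes, Lef1 was at rank 1869 with r = 0.384, Axin2 at rank 6030 with r = 0.0666 and Dkk2 at rank 11099 with r = -0.296.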

How the data were processed

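RNA was extracted with the RNeasy mini kit, sequenced from both ends (NovaSeq) and aligned by the authors with HISAT2 to GRCm38. The counting tool, its use of strand and its treatment of multiple alignments are not given in the sources used here. The deposited values are raw counts of reads per gene, with no normalization by the authors, and 0 columns were left out. Columns were assigned to groups by sample title.

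Genes were filtered with edgeR's filterByExpr (15381 of 55487 kept), and libraries were scaled with TMM factors (0.963 to 1.03). A robust quasi-likelihood model was fitted to all 18 libraries in 6 groups, without covariates. A call needed, as in the study, a log2 fold change of more than 0.58 in size and an adjusted p (Benjamini-Hochberg, over the 15381 genes) under 0.05, and differences between the exchanges used the adjusted p alone. CPM are counts scaled to an effective library of 1000000 reads. For a count of 0 a floor of 3 counts was set, which is not the exact Poisson interval used for Wnt9a. Level per length is CPM per kb of merged exons (GENCODE M21). log2 CPM used a prior count of 2. Intervals from counts cover counting error only, since reads carried no molecular identifiers. The fit was tested on simulated data.

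The members, lists and tests were chosen with earlier results of these data known. The text names all 10 members, the listed pathway genes called in at least 1 of the 5 comparisons of the study, the highest gene per length of each list, and the 10 genes most like Wnt9a. Other genes were named after their values were seen. The lists were taken from textbook knowledge, and 1 marker gene is not reported here. Alternatives were RLE scaling, no filter, DESeq2, edgeR on the compared groups, a replicate block (by the titles' numbers or, added after the data were seen, those of the columns), no minimum fold change, each library left out, and Spearman's rho. The motifs were chosen after the data were seen. The software was edgeR 4.0.16 and DESeq2 1.42.0 in R 4.3.3, with limma 3.58.1, and matplotlib 3.10.9 in Python 3.11.15.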

Additional observations from a re-analysis of the deposited data

Results flagged for a closer look

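For these genes the exchange into Rcm (S-Rcm against Scm) and the exchange into Scm (R-Scm against Rcm) differed. The values are the first log2 fold change minus the second, with adjusted p over 15381 genes from edgeR's quasi-likelihood test. Such a value equals the log2 difference of Rcm from Scm plus that of S-Rcm from R-Scm. A difference in steady culture is therefore part of it and is not found here a second time. Wnt9a differed by 2.01 (SE 0.27) at 24 h, where all 3 libraries of each exchange moved in opposite ways past their starting medium. That difference was not tested, since Wnt9a was chosen for this pattern. Apcdd1 differed by 0.99 (SE 0.15, adjusted p = 0.0013) at 12 h and 1.14 (SE 0.15, adjusted p = 0.00086) at 24 h. These calls held in all alternatives, those without 1 library included. Apcdd1 averaged 24.4 CPM in S-Rcm 12 h and 24.2 CPM in R-Scm 12 h, so its 12 h value is close to the 0.98 of Rcm against Scm. At 24 h these means were 24.5 and 22.0 CPM. Wnt7a differed by -2.15 (SE 0.48, adjusted p = 0.0265) at 12 h and -2.08 (SE 0.48, adjusted p = 0.0447) at 24 h, calls lost in 9 and 11 of 12 fits without 1 library and in both cases without the filter (adjusted p = 0.0703 and 0.113), and the second also on the compared groups alone (0.0808). Notum differed by -1.53 (SE 0.33, adjusted p = 0.0281) at 24 h, lost in 8 of 12 and with the replicate number as a block (adjusted p = 0.0506). Its means at 24 h were 18.6 CPM in S-Rcm and 20.2 CPM in R-Scm. Fzd5 differed by -0.77 (SE 0.19, adjusted p = 0.0429) at 12 h, lost in 12 of 12 and with that block (0.067). Cd44, a cell surface receptor listed as a target, differed by -0.93 (SE 0.19, adjusted p = 0.0174) at 12 h, with 348, 348 and 318 CPM in S-Rcm and 498, 401 and 573 CPM in R-Scm. Whether the Cd44 call holds in the alternatives was not examined.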

How the results depend on the processing

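The count of 0 called among the 7 tested members kept its value under RLE scaling, no filter, the compared groups alone, no minimum fold change and each library left out (0 to 0), in all comparisons where these were run. DESeq2 gave 1 (Axin2) in each of 3 comparisons of R-Scm 12 h, with Rcm, S-Rcm 12 h and R-Scm 24 h, and the cause was not tested. With the replicate number as a block (replicate block) the member counts were 0 and the pathway count in Rcm against Scm was 5. The block ended the calls of Sfrp2 in Rcm against Scm and R-Scm 12 h against Rcm (adjusted p = 0.0645 and 0.0631), of Rspo2 between S-Rcm 12 h and R-Scm 12 h (0.0553), and of the difference between the exchanges for Fzd5 at 12 h (0.067) and Notum at 24 h (0.0506), and it changed no other call of a named gene, with Cd44 not examined. The replicate numbers of the titles did not pair the libraries, since deviations of same-numbered libraries correlated at -0.196 to 0.346 (mean 0.0104, 11 of 45 pairs over 0.1, 8 of 18 libraries best with their own number). The column names of the count table number 6 libraries of 3 groups differently. By those numbers 36 pairs correlated at -0.208 to 0.165 (7 over 0.1). A block on them, added after the data were seen, gave member counts of 0 and a pathway count of 5. It ended the same 5 calls and those of Notum and Dkk3 in R-Scm 12 h against Rcm (adjusted p = 0.0742 and 0.0608). It turned the sign of Wnt10b (0.062) and Dkk2 (-0.0025) in R-Scm 24 h and of Axin2 (-0.10) in S-Rcm 24 h, none of them called. The pathway count of 6 ran from 3 to 5 with 1 library left out, where fewer samples remain. It was 4 with no filter, 7 on the compared groups and 9 with DESeq2. Of 1013 values of single genes, 868 kept direction and side of the threshold, 117 lost a call and 3 gained one. All 117 belong to pathway genes, which entered this tally only where they were called. Values of members, none of them called in the main fit, could not lose a call. The share of 868 in 1013 is therefore no measure of how often a call held, which is given gene by gene above. The values of Wnt9a, which has no call, are among the 868. They count there since each kept its direction and moved by less than the SD within groups. The other sign changes came with 1 library left out. For Wnt10b these fits gave -0.13 to 0.13 (Rcm against Scm), -0.22 to 0.13 (R-Scm 24 h), -0.039 to 0.15 (S-Rcm 12 h) and -0.041 to 0.13 (S-Rcm 24 h). For S-Rcm 24 h they gave -0.14 to 0.15 for Wnt5a, -0.16 to 0.27 for Axin2, -0.023 to 0.93 for Lef1 and -0.23 to 0.020 for Dkk2. For R-Scm 24 h they gave -0.49 to 0.27 for Lef1, -0.14 to 0.52 for Sfrp1 and -0.068 to 0.36 for Dkk2. None of these was called. Depth limits Wnt2, Wnt5b, Wnt4, Lef1 and Sfrp2, which rest on few reads.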
